A study of Mus musculus with 10 samples.

Results

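The genes described here are 10 genes of Notch signalling, found by symbol in a deposited table of 21956 genes from mouse gastrocnemius, a large calf muscle. They are the 4 receptor genes Notch1, Notch2, Notch3 and Notch4, the 4 ligand genes Dll1, Dll4, Jag1 and Jag2, and the target genes Hes1 and Hey1. Poly(A) RNA was sequenced from 5 HLI samples and 5 Sham samples, all labelled wild type (WT). HLI is taken to stand for hindlimb ischaemia, an abbreviation that no label explains. Age, sex, strain and the time after surgery were not known. By its title the series is about FGF13 of endothelial cells in angiogenesis and HIF-1α, and the labels give no allele other than WT in either group. No label ties a sample to its own mouse, so the p-values reflect the spread among 5 samples a group, which may be technical.

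Notch receptors are cell-surface proteins that are activated by ligands on a neighbouring cell. Binding leads to cleavage by ADAM proteases and then by γ-secretase, and the released intracellular domain joins the DNA-binding protein RBPJ and Mastermind proteins to switch on genes of the Hes and Hey families. In blood vessels DLL4 acts largely through NOTCH1 to restrain sprouting and to favour arterial identity, NOTCH3 is the receptor of pericytes and smooth muscle cells, and in muscle stem cells Notch activity maintains quiescence.

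The 250 bases before the start of transcription are shown for Dll4 and Notch4, whose values shifted most between the groups, and for Nrarp and Hey2, other tested targets of the pathway whose windows held a searched motif. They are RefSeq sequences of build GRCm38.p6, a build other than the one the submitters name, and 8 of the 10 genes had an entry. Capitals mark matches, on either strand, to the RBPJ core TGGGAA, the hypoxia response core ACGTG or the ETS motif CCGGAA. Dll4 lies on the plus strand at chr2:119325534-119325783, Notch4 on the plus strand at chr17:34564045-34564294, Nrarp on the plus strand at chr2:25180508-25180757 and Hey2 on the minus strand at chr10:30842784-30843033.
Dll4: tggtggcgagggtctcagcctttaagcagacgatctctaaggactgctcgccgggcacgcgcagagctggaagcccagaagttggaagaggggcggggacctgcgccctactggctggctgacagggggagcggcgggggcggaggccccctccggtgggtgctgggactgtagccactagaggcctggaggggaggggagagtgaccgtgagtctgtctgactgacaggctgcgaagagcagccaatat
Notch4: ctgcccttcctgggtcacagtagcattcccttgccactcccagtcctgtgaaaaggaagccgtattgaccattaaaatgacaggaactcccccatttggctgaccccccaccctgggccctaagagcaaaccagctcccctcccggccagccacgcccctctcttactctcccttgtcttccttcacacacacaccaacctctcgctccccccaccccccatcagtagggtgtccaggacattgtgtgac
Nrarp: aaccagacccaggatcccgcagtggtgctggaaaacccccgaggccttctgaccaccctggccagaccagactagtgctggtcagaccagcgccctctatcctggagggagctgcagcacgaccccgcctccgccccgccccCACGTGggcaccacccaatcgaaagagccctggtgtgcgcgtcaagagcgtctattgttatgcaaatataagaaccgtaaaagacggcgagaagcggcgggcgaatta
Hey2: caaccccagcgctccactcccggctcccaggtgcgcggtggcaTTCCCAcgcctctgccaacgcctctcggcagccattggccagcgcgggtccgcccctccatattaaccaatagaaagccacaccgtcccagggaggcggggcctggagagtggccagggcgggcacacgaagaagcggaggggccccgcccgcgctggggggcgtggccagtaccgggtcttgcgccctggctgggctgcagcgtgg
The windows of Dll4 and Notch4 held none of the 3 motifs. The Nrarp window held the palindrome CACGTG, which counts as overlapping matches to the hypoxia response core on both strands, and the Hey2 window held 1 RBPJ core on the reverse strand. Among the 9 windows of the 8 genes, only that of Notch3 held a match, to the hypoxia response core. Of 32851 such windows of all genes, 21.6% held the RBPJ core, 16.6% the hypoxia response core and 12.0% the ETS motif. A match is a description of these letters and not of binding.

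All 10 genes passed the filter on low counts, with 122 to 2026 estimated counts per library out of library totals of 16556385 to 22136299. Before the results, 2 libraries need mention. Myh3, the embryonic myosin heavy chain gene of newly formed fibres, stood at 7.71 CPM (counts scaled to library size with TMM factors) in HLI replicate 1, whereas HLI replicates 2 to 5 ranged from 79.9 to 442 CPM. In Sham it stood at 164 CPM in replicate 1 and between 3.97 and 5.63 CPM in the others. Sham replicate 1 thus lay within the range of HLI replicates 2 to 5, and HLI replicate 1 lay far below these and just above Sham replicates 2 to 5. Whether the labels of these 2 libraries were exchanged cannot be told from the labels, and an exchange would change every comparison of HLI with Sham given here. Libraries are named as labelled, and results are given with and without these 2.

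No gene of the 10 passed the test for a difference between HLI and Sham. Of the 10, 0 passed the edgeR quasi-likelihood test at a Benjamini-Hochberg adjusted p under 0.05, where 0.0% of all 13404 genes tested passed. At an unadjusted p under 0.05 the count was 0 of 10, against 16.9% of all genes, and DESeq2 called 0 of 10, against 0.313% of all genes, with 0 of 10 at an unadjusted p under 0.05, against 19.7%. Log2 fold changes (HLI over Sham) lay above 0 for 8 genes and below 0 for Jag2 and Hes1, with a median of 0.25, beside a median of 0.03 and 53.8% above 0 over all genes. Adjusted p-values of the edgeR fit ran from 0.32 for Notch4 to 0.84 for Hes1.

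**Figure D1:**
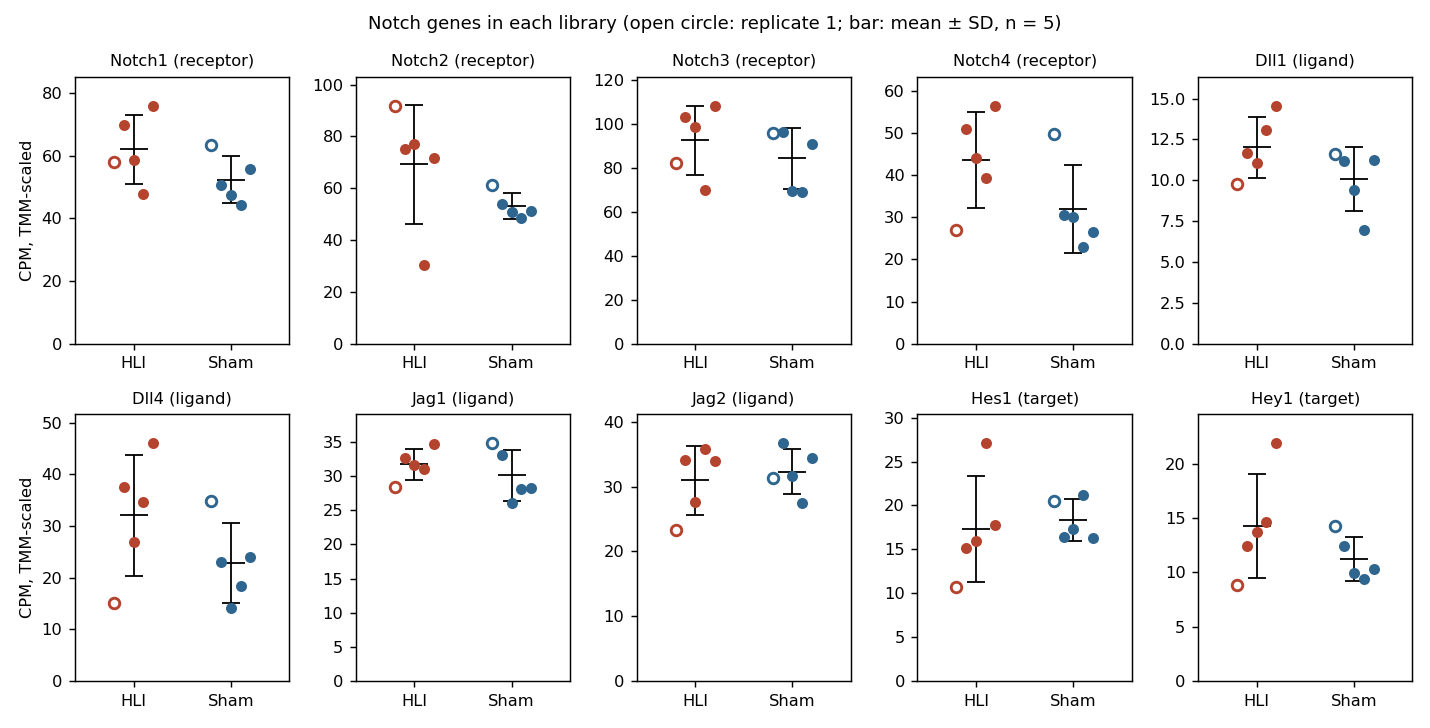
CPM (vertical axis, from 0) of each of the 10 genes in the 5 HLI and 5 Sham libraries; points are libraries, open circles are replicate 1 of each group, and bars give the mean ± SD. In Dll4, Notch4, Hey1, Dll1 and Jag1 the open HLI circle lies below the other HLI points and the open Sham circle above the other Sham points.

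Among the receptors, Notch4, which is found mainly in endothelial cells, had 27.1, 51.1, 44.1, 39.5 and 56.6 CPM in HLI replicates 1 to 5, against 49.9, 30.5, 30.01, 22.9 and 26.5 CPM in Sham replicates 1 to 5. The groups overlapped only through replicate 1 of each. The means were 43.7 ± 11.4 CPM in HLI and 32.0 ± 10.5 CPM in Sham (SD, n = 5 each), and the log2 fold change stood at 0.45 (SE 0.23, adjusted p = 0.32 in edgeR). Without both replicates 1 it was 0.80 (SE 0.15, edgeR adjusted p = 0.059), a 1.74-fold higher level that still missed the threshold.

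Notch1, the receptor needed in endothelium and in muscle stem cells, had 58.1, 69.8, 58.6, 47.7 and 76.04 CPM in HLI replicates 1 to 5, against 63.6, 50.8, 47.5, 44.4 and 55.7 CPM in Sham replicates 1 to 5. The groups overlapped, with HLI replicates 2 and 5 above every Sham library. Its log2 fold change was 0.24 (SE 0.14, edgeR adjusted p = 0.35), with 0.16 without HLI replicate 5. Notch3, the receptor of mural cells, had 92.5 ± 15.8 CPM in HLI and 84.3 ± 13.9 CPM in Sham (SD, n = 5 each). Its ranges, 70.1 to 108 CPM in HLI and 68.9 to 96.4 CPM in Sham, lay largely on top of each other, and the log2 fold change was 0.13 (SE 0.15), with 0.05 without Sham replicate 4 and 0.20 without HLI replicate 4.

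Notch2, which is broadly expressed and also acts in myeloid cells, spread more widely among the HLI libraries than among the Sham libraries. It had 91.9, 75.0, 77.2, 30.2 and 71.5 CPM in HLI replicates 1 to 5, against 61.1, 53.9, 50.6, 48.6 and 51.02 CPM in Sham replicates 1 to 5. HLI replicates 1, 2, 3 and 5 lay above every Sham library, whereas HLI replicate 4 lay below every Sham library. The log2 fold change was 0.38 (SE 0.23, edgeR adjusted p = 0.36). Without HLI replicate 4 it was 0.56 (edgeR adjusted p = 0.081). In that edgeR fit 4181 of 13522 genes had an unadjusted p under 0.05, and 0 were called. The smallest edgeR adjusted p of any gene there was 0.0767. Without both replicates 1 the log2 fold change of Notch2 was 0.315 (SE 0.251, edgeR adjusted p = 0.452).

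Among the ligands, Dll4, the ligand of arterial and sprouting endothelium, had 15.1, 37.6, 27.0, 34.6 and 46.04 CPM in HLI replicates 1 to 5, against 34.8, 23.0, 14.1, 18.3 and 24.0 CPM in Sham replicates 1 to 5. As with Notch4, HLI replicate 1 lay low in its group and Sham replicate 1 was the highest of its group. The log2 fold change was 0.49 (SE 0.29, edgeR adjusted p = 0.36), the highest of the 10 genes and the 87.0th percentile of all genes tested, with 0.32 without HLI replicate 5. Without both replicates 1 it was 0.87 (SE 0.20, edgeR adjusted p = 0.10), a 1.83-fold higher level and the 94.0th percentile, and the ranges, 27.0 to 46.04 CPM in HLI and 14.1 to 24.0 CPM in Sham, did not overlap.

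Dll1, a ligand made by myogenic and other cells, was the least abundant of the 10 genes. It had 12.0 ± 1.86 CPM in HLI and 10.1 ± 1.95 CPM in Sham (SD, n = 5 each), at 0.25 on the log2 scale (SE 0.17, adjusted p = 0.39 in edgeR), and at 0.13 without Sham replicate 4. HLI replicates 2, 4 and 5 lay above every Sham library, the last by the widest margin at 14.6 CPM.

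The Jagged ligand genes had log2 fold changes close to 0. Jag1, a ligand of endothelial and smooth muscle cells, had 31.8 ± 2.30 CPM in HLI and 30.1 ± 3.70 CPM in Sham (SD, n = 5 each), with a log2 fold change of 0.08 (SE 0.11) that was 0.02 when Sham replicate 3 was left out and 0.13 when Sham replicate 1 was. Jag2 had 31.0 ± 5.28 CPM in HLI and 32.3 ± 3.49 CPM in Sham (SD, n = 5 each), with a log2 fold change of -0.06 (SE 0.13). All HLI values of Jag1 lay within the Sham range, and of Jag2 only HLI replicate 1, at 23.3 CPM, lay outside it. Jag2 was above 0, at 0.02, without both replicates 1, and at 0.09 on unscaled log2(TPM + 1), a scale that shifted the median gene by 0.19.

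Neither target gene passed the test. Hey1, a transcriptional repressor induced by Notch in endothelium, had 8.82, 12.4, 13.7, 14.6 and 21.9 CPM in HLI replicates 1 to 5, against 14.2, 12.4, 10.0, 9.38 and 10.3 CPM in Sham replicates 1 to 5. HLI replicate 5 was the highest library and HLI replicate 1 the lowest. Its log2 fold change was 0.34 (SE 0.22, edgeR adjusted p = 0.38), with 0.57 without both replicates 1 (SE 0.19, edgeR adjusted p = 0.18) and 0.14 without HLI replicate 5.

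Hes1, a repressor that also answers to other pathways, had 10.7, 15.1, 15.96, 27.1 and 17.8 CPM in HLI replicates 1 to 5, against 20.5, 16.4, 17.3, 21.2 and 16.2 CPM in Sham replicates 1 to 5. HLI replicates 1, 2 and 3 lay below every Sham library and HLI replicate 4 above every one. The log2 fold change was -0.08 (SE 0.21, edgeR adjusted p = 0.84), 0.05 without HLI replicate 1 and -0.31 without HLI replicate 4.

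With all libraries 0 of the 10 genes had groups that did not overlap, where 0.776% of all genes had every HLI library above every Sham library and 0.873% every HLI library below. Without both replicates 1, 3 of the 10 (Notch4, Dll4 and Hey1) had every HLI library above every Sham library, against 5.91% of all genes in that direction and 4.45% in the other. The margin was narrow for Hey1, at 12.41 CPM in the lowest such HLI library and 12.4 CPM in the highest such Sham library. In that fit all 10 log2 fold changes were above 0, against 53.2% of all genes. At an unadjusted p under 0.05, 4 of the 10 had higher and 0 lower values in HLI, against 13.5% and 7.02% of all genes (20.5% together), and 0 of 10 passed the adjusted threshold, against 0.401% of all genes. The 4 were Notch1, Notch4, Dll4 and Hey1.

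**Figure D2:**
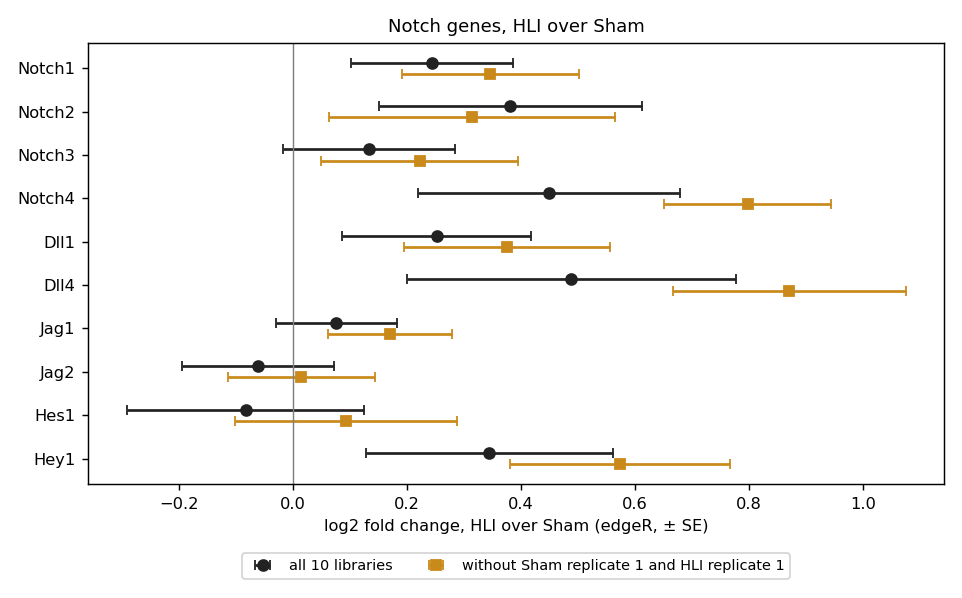
Log2 fold change of HLI over Sham (horizontal axis) with its standard error for each of the 10 genes, from the edgeR fit to all 10 libraries (circles) and to the 8 libraries left without both replicates 1 (squares). Dll4 and Notch4 move to 0.87 and 0.80, while Jag2 and Hes1 stay near 0 in both fits.

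Levels between genes were compared as TPM, which is relative to gene length. TPM were not scaled between libraries, and on log2(TPM + 1) the median gene lay 0.19 higher in HLI. Only the order within a group is therefore read here, not the difference between groups. In HLI the order ran from Notch3 at 22.7 ± 5.57 TPM and Hes1 at 22.6 ± 6.18 TPM through Dll4 at 16.5 ± 5.76 TPM and Jag2 at 13.6 ± 3.10 TPM to Notch2, Notch4 and Notch1 between 13.0 and 13.2 TPM. Below them came Hey1 at 11.5 ± 4.03 TPM, Jag1 at 11.1 ± 1.61 TPM and Dll1 at 6.52 ± 1.02 TPM (SD, n = 5). In Sham the order was Hes1 at 21.2 ± 3.12 TPM, Notch3 at 17.9 ± 3.40 TPM, Jag2 at 12.7 ± 2.83 TPM, Dll4 at 10.4 ± 4.06 TPM, Notch1, Jag1, Notch2, Notch4 and Hey1 between 9.40 and 7.92 TPM, and Dll1 at 4.80 ± 1.10 TPM (SD, n = 5). In both groups the ranges of every pair of neighbours overlapped, with the exception of Dll1, which lay below the gene before it in all 5 libraries with no overlap. Notch3 was the most abundant receptor in all 10 libraries.

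The make-up of the receptor pool and the ligand pool was described as shares of their summed TPM. Notch1 held 21.2% ± 0.97 of the receptor sum in HLI and 21.3% ± 1.05 in Sham, and Notch3 36.7% ± 1.30 in HLI and 40.7% ± 3.23 in Sham (SD, n = 5 each). Notch2 held 29.6% in HLI replicate 1 and 12.6% in HLI replicate 4, while Notch4 held 13.9% and 27.1% in these libraries. Among the ligands, Dll4 held 24.2, 35.8, 31.1, 36.3 and 41.7% of the sum in HLI replicates 1 to 5, against 36.0, 24.7, 21.0, 28.2 and 28.0% in Sham replicates 1 to 5. The share of Dll4 was thus highest in HLI replicate 5 and lowest in Sham replicate 3. Jag2 held 28.6% ± 3.28 in HLI and 34.6% ± 5.0 in Sham (SD, n = 5 each).

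**Figure D3:**
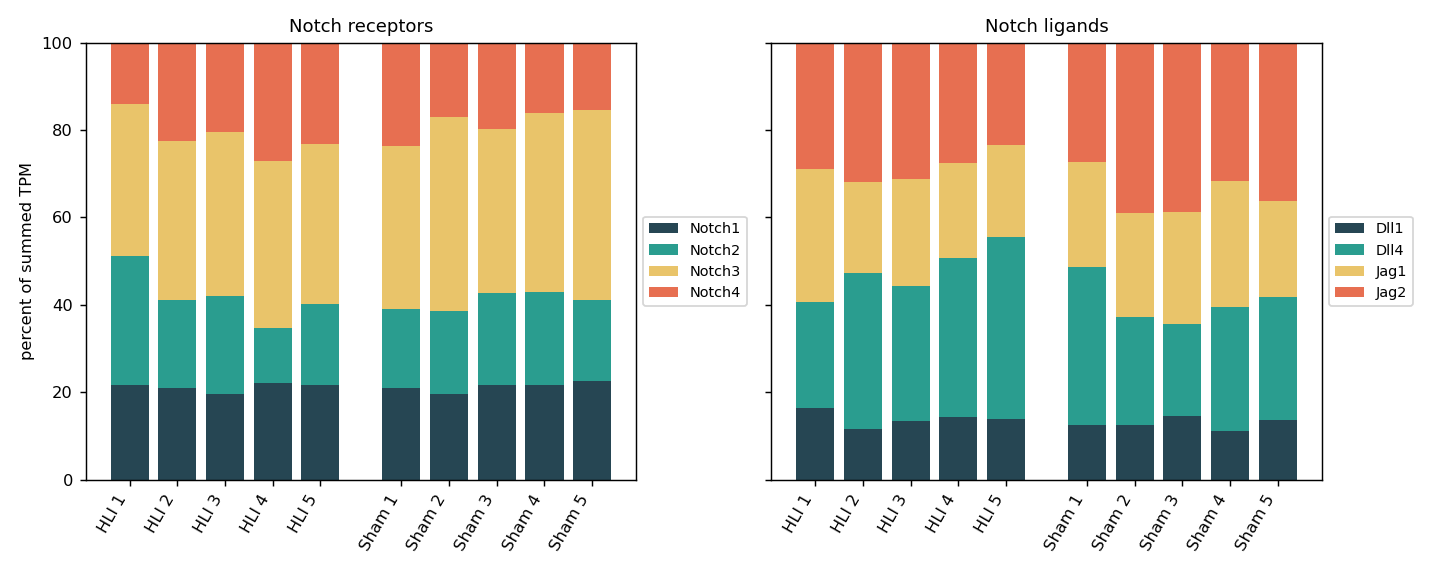
Percent of the summed TPM of the 4 receptor genes (left) and of the 4 ligand genes (right) in each library. Notch1 keeps a share near 21% in both groups, whereas the Dll4 share runs from 21.0% in Sham replicate 3 to 41.7% in HLI replicate 5.

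In whole muscle, fewer cells of a type and less RNA per cell cannot be told apart, so the 10 genes were set beside markers of the cells that express them. The 14 endothelial markers, Pecam1 and Cdh5 among them, summed to between 1641 and 2470 CPM in HLI and between 1603 and 2469 CPM in Sham, with 9 of 14 log2 fold changes above 0 and none of the markers at 0. Pearson's r of log2 CPM with their mean over the 10 libraries was 0.93 for Dll4 (permutation p = 0.00019, adjusted p = 0.0019 over 10 relations), with Spearman's rho of 0.96 (permutation p = 2e-05, adjusted p = 0.0002). For Jag1 r was 0.88 (rho 0.85, permutation p = 0.0008 and 0.0028, adjusted p = 0.0035 and 0.0059) and for Notch4 0.87 (rho 0.85, permutation p = 0.001 and 0.0029, adjusted p = 0.0035 and 0.0059). Leaving out HLI replicates 2 and 5, the libraries farthest from the median of the marker mean, gave r of 0.88 for Dll4, 0.88 for Jag1 and 0.76 for Notch4. Within groups, after subtracting the group means, r was 0.93, 0.87 and 0.88.

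Notch1, Hey1, Notch3 and Dll1 also followed the endothelial mean, with r of 0.81, 0.78, 0.76 and 0.70, rho of 0.72, 0.85, 0.76 and 0.89, permutation p of 0.0054, 0.0051, 0.013 and 0.019 for r and of 0.024, 0.003, 0.015 and 0.0011 for rho, and adjusted p of at most 0.034 for either measure. Leaving out HLI replicates 2 and 5 gave r of 0.59, 0.78, 0.60 and 0.59. Without HLI replicate 5 alone the adjusted p of r rose above the threshold for all 4 (0.058, 0.070, 0.071 and 0.13, exact permutation test), and without Sham replicate 3 alone for Notch3 and Dll1 (0.053 each, exact permutation test). For Dll1 r was 0.72 without both replicates 1, and this also missed the threshold. What share of all genes would pass the relation with the endothelial mean was not computed. Whether the relations of these genes and of Dll4, Jag1 and Notch4 set them apart from other genes is therefore not known. The relation did not pass for Jag2 (r = 0.47, rho 0.43, permutation p = 0.17 and 0.22, adjusted p = 0.21 and 0.27), Notch2 (r = 0.21, rho 0.18, permutation p = 0.57 and 0.63, adjusted p = 0.61 and 0.63) or Hes1 (r = 0.19, rho 0.19, permutation p = 0.61 for both, adjusted p = 0.61 and 0.63). For Notch2 r was 0.50 without HLI replicate 1 (adjusted p = 0.21, exact permutation test) and 0.60 on log2(TPM + 1) (permutation test, adjusted p = 0.079).

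Relative to the endothelial mean, the level of Dll4 in log2 units was -1.79 ± 0.40 in HLI and -2.11 ± 0.26 in Sham, and that of Notch4 was -1.29 ± 0.19 in HLI and -1.62 ± 0.26 in Sham (SD, n = 5 each). The difference of these group means was 0.32 for each. The edgeR log2 fold changes of 0.49 and 0.45 come from a fit to counts, a different measure, so the size of any drop is not read from them. Jag1 differed by -0.05, Jag2 by -0.21, Hes1 by -0.27 and Hey1 by 0.16. These values are a description, and the part of endothelial RNA in the group differences was not tested.

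**Figure D4:**
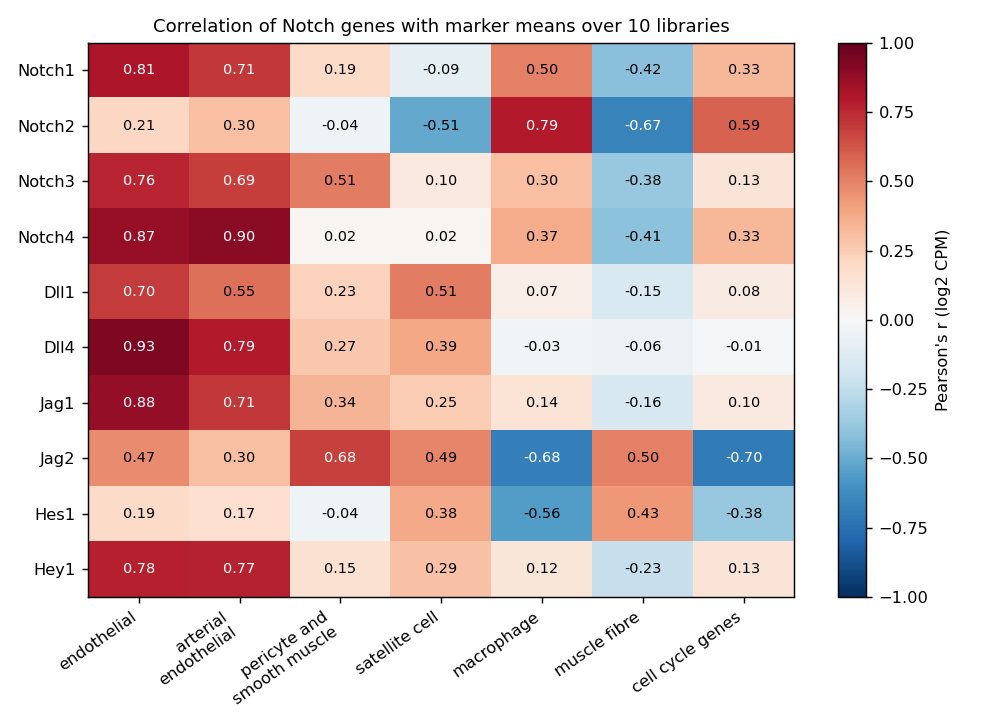
Pearson's r over the 10 libraries between log2 CPM of each of the 10 genes (rows) and the mean log2 CPM of 7 marker lists (columns), with red for positive and blue for negative values. Dll4, Jag1 and Notch4 have r of 0.87 to 0.93 with endothelial markers, while Notch2 has 0.79 with macrophage markers.

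The same relation was examined with 6 further lists, 60 relations chosen after seeing the data, of which 0 passed by Pearson's r and 1 by Spearman's rho at an adjusted p under 0.05. The 1 was that of Notch4 with 7 arterial endothelial markers (r = 0.90, rho 0.92, permutation p = 0.00085 and 0.00062, adjusted p = 0.051 and 0.037), with r of 0.88 within groups and without the 2 libraries farthest from the median. All 7 of these had log2 fold changes above 0, with summed levels of 135 to 224 CPM in HLI and 135 to 198 CPM in Sham. Notch2 had r of 0.79 with 10 macrophage markers (rho 0.78, permutation p = 0.0048 and 0.011, adjusted p = 0.13 for both) and 0.77 without the 2 libraries farthest from the median. In the macrophage list 0 of 10 markers were called, while 10 of 10 log2 fold changes lay above 0, with a median of 0.91 and summed levels of 843 to 3438 CPM in HLI and 655 to 1639 CPM in Sham. The groups overlapped, since the macrophage score of HLI replicate 4, the library with the lowest Notch2, was -0.81, against -1.17 to 0.26 in Sham. The part of this list in the values of Notch2 was not tested. What share of all genes would pass with these further lists was not computed either.

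Notch3 had r of 0.51 with 10 pericyte and smooth muscle markers (rho 0.45, permutation p = 0.13 and 0.19, adjusted p = 0.44 and 0.46), 0.71 within groups and 0.57 without the 2 libraries farthest from the median. Those markers summed to between 1060 and 1675 CPM in HLI and between 1409 and 1515 CPM in Sham, with 4 of 10 log2 fold changes above 0. Of the muscle fibre markers 0 of 10 were called, and 9 of 10 log2 fold changes lay below 0, with a median of -0.51 and overlapping summed levels of 54160 to 150600 CPM in HLI and 129300 to 170200 CPM in Sham. In HLI replicate 3, the library with the lowest fibre score, the 10 genes lay inside the range of the other HLI libraries. Of 8 satellite cell markers, 4 had log2 fold changes above 0 and 4 below, with a median of -0.01, and 0 were called. At an unadjusted edgeR p under 0.05, 1 was higher and 1 lower in HLI, beside 10.7% and 6.15% of all genes. Pax7, their defining transcription factor, was present in every library at 4.79 to 12.9 CPM in HLI and 4.98 to 9.40 CPM in Sham. Of 4 myoblast and myocyte markers tested, 2 had log2 fold changes above 0 and 2 below, with a median of 0.80 and 0 called. The 2 above 0 had an unadjusted edgeR p under 0.05. Cell cycle genes had 10 of 10 log2 fold changes above 0, with a median of 1.58, and 0 of 10 were called. All 10 had an unadjusted edgeR p under 0.05, beside 10.7% of all genes with higher values in HLI at that p. Their summed levels ran from 76.9 to 286 CPM in HLI and from 26.1 to 80.7 CPM in Sham. The part of these marker lists in the values of the 10 Notch genes was not tested.

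Relations among the 10 genes themselves were computed for 45 pairs, also after seeing the data, of which 12 had an adjusted p under 0.05 by r and 17 by rho. How many pairs among all genes would pass was not computed. The pairs of Dll4, Notch4 and Hey1 were among those that passed. Each of these genes also followed the endothelial mean, with r of 0.93, 0.87 and 0.78, and the part of endothelial RNA in these pairs was not tested. Hey1 with Dll4 had r of 0.87 (rho 0.87, permutation p = 0.00074 and 0.0023, adjusted p = 0.023 and 0.033), Dll4 with Notch4 had r of 0.86 (rho 0.84, permutation p = 0.0026 and 0.0037, adjusted p = 0.023 and 0.034) and Hey1 with Notch4 had r of 0.85 (rho 0.83, permutation p = 0.0012 and 0.0049, adjusted p = 0.023 and 0.037). Without the 2 libraries farthest from the median, r was 0.87, 0.81 and 0.79. Hes1 and Notch2 ran in opposite directions, with r of -0.84 (rho -0.79, permutation p = 0.0046 and 0.0085, adjusted p = 0.023 and 0.038). Without HLI replicates 1 and 4, which hold the highest and the lowest Notch2, r was -0.43, so the size of r rests on libraries at the ends of the Notch2 range. Without both replicates 1 it was -0.84.

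**Figure D5:**
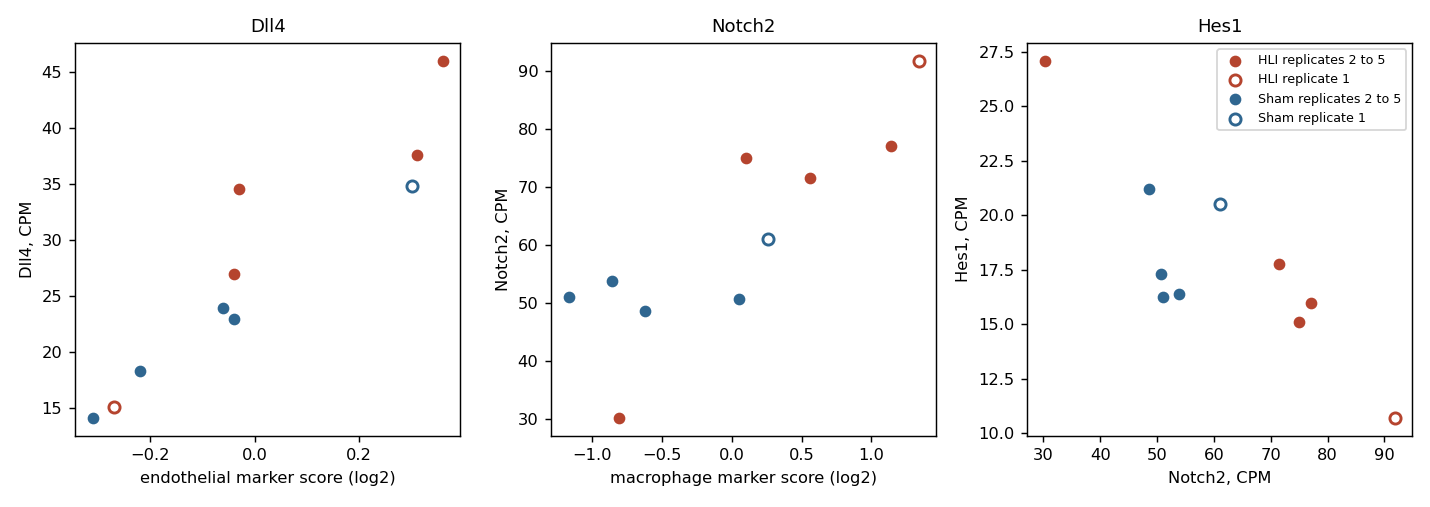
Each point is 1 of the 10 libraries, with open circles for replicate 1 of each group: Dll4 CPM against the endothelial marker score, Notch2 CPM against the macrophage marker score, and Hes1 CPM against Notch2 CPM. Scores are means of log2 CPM relative to the 10-library mean, and HLI replicates 1 and 4 mark the ends of the opposite course of Hes1 and Notch2.

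The genes whose log2 CPM over the 10 libraries was most like each of the 10, among 12911 genes with a mean of at least 1 CPM, are given as a description. For Dll4 they were Tie1 (r = 0.984) and Esam (r = 0.975), both in the endothelial list, and for Notch4 Prkd2 (0.969) and N4bp3 (0.962). For Notch2 they were Endod1 (0.976) and Hsd3b7 (0.971), for Notch1 Tspan11 (0.978) and Usp18 (0.945), and for Notch3 Socs1 (0.947) and Fbh1 (0.945). For Jag1 they were Tnfaip3 (0.941) and Tanc1 (0.921), for Jag2 Rps6kl1 (0.931) and Herc1 (0.925), and for Dll1 Sox13 (0.909) and Jund (0.901). For Hes1 they were Ankra2 (0.974) and Trim24 (0.928), and for Hey1 Gdpd5 (0.923) and Sema6d (0.913). Genes with r above 0.9 numbered 112 for Notch2, 55 for Notch4, 41 for Dll4, 26 for Notch1, 15 for Notch3, 12 for Hes1 and 10 for Jag1. Hey1, Dll1 and Jag2 had 3 each. How many such genes a typical gene would have was not computed.

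Of 51 further genes of the pathway 45 were measured well enough to test. Of these, 0 passed the edgeR test, as did 0.0% of all genes, and 0 passed the DESeq2 test, against 0.313% of all genes. At an unadjusted p under 0.05, 5 had higher and 2 had lower values in HLI, beside shares of 10.7% and 6.15% over all genes, and the median log2 fold change was 0.14. Dll3 was listed at 0 in every library, and Hes5, a target gene of neural cells, reached at most 2 counts.

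Among 10 genes of receptor cleavage, Psenen, a γ-secretase subunit gene, had 33.4 ± 2.76 CPM in HLI and 40.0 ± 2.42 CPM in Sham (SD, n = 5 each), and its log2 fold change stood at -0.26 (SE 0.09, adjusted p = 0.29 in edgeR). Aph1c had 0.79 (SE 0.31), though its reads may be shared with its close copy Aph1b. The sheddase genes Adam10 and Adam17, named after their values were seen, had 0.46 (SE 0.20) and 0.37 (SE 0.15). In the nuclear complex, Maml1, a Mastermind coactivator gene, had 0.25 (SE 0.11) and Rbpj, the DNA-binding partner, had 0.14 (SE 0.18). Their edgeR adjusted p-values lay at or above 0.29.

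Among other targets, Nrarp, a feedback inhibitor induced by Notch, had 20.2, 31.2, 28.0, 33.6 and 28.5 CPM in HLI replicates 1 to 5, against 25.7, 23.1, 17.8, 20.6 and 22.7 CPM in Sham replicates 1 to 5. HLI replicate 1 lay within the range of Sham replicates 2 to 5, and Sham replicate 1 lay between these and HLI replicates 2 to 5. The log2 fold change was 0.36 (SE 0.15, edgeR adjusted p = 0.29), and 0.53 (SE 0.12, edgeR adjusted p = 0.10) without both replicates 1. Heyl, a Hey-family gene of mural and satellite cells, had 39.8 ± 7.44 CPM in HLI and 36.2 ± 12.4 CPM in Sham (SD, n = 5 each). Dlk1, which encodes a Notch-related protein of regenerating muscle, had 1.21, 11.9, 29.1, 7.61 and 9.24 CPM in HLI replicates 1 to 5, against 18.0, 3.83, 0.857, 1.95 and 3.45 CPM in Sham replicates 1 to 5. Its log2 fold change was 1.08 (SE 0.80, edgeR adjusted p = 0.44), and 2.52 (SE 0.53, edgeR adjusted p = 0.089) without both replicates 1. Among the genes of receptor glycosylation and of endocytosis and turnover, 0 of 5 and 0 of 14 had an unadjusted p under 0.05, and the most abundant were the O-glucosyltransferase gene Poglut1 at 14.8 TPM and the ubiquitin ligase gene Neurl1a at 77.1 TPM over all libraries.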

How the data were processed

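Poly(A) RNA of gastrocnemius was sequenced as paired-end libraries, per the labels' protocols, from 5 HLI and 5 Sham samples, grouped by their titles. The series text speaks of cells, and the sample protocol of adipose material, so the handling is uncertain. HISAT2 2.0, Bowtie 0.12.2 and build mm8 are named, without roles, per the submitters' processing notes. Which tool counted, with what annotation and whether by strand, was not known.

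The authors deposited estimated counts per gene, not normalized, of which 93.4% are whole numbers. The authors also deposited TPM values, per the file headers, which sum to 1000000 per sample. Library totals ran from 16556385 to 22136299.

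Estimated counts were rounded and tested in R 4.3.3 with edgeR 4.0.16 (TMM, filterByExpr at min.count 10 and min.total.count 15, no covariate), adjusted over 13404 genes. The step was tested on simulated data, where it recovered 59% of 2-fold and 96% of 4-fold changes, with 3.12% of calls false. The largest fold of the 10 genes with all libraries was 1.4, for Dll4. Changes of that size were not simulated, so a change of this size may be missed. Levels are CPM on TMM-scaled library sizes, and log2 CPM used a prior count of 2. Correlations used 100000 two-sided permutations, exact for 9 or fewer libraries. DESeq2 1.42.0 and limma 3.58.1 on log2(TPM + 1) and log2(TPM + 0.1) were alternatives, with other scalings, no filter, a replicate block and libraries left out.

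The 10 genes, the marker and pathway lists and the libraries to leave out were chosen with earlier results of these data known. Named pathway genes are those called, the 2 per list with the smallest unadjusted p under 0.05 and the most abundant. A gene that this rule names is not reported here.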

Additional observations from a re-analysis of the deposited data

Results flagged for a closer look

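Of the 20 groups of 5 libraries examined over the 10 Notch genes, 1 held a library that stood apart from the rest of its group. Notch4 was at 49.9 CPM in Sham replicate 1, and the nearest other Sham library was at 30.5 CPM, a gap of 0.719 of the range of the group. Chance sets such a flag in about 1 in 20 groups.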

How the results depend on the processing

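The count of genes called in HLI against Sham was 0 in edgeR, with 2262 genes at an unadjusted p under 0.05, and 42 in DESeq2 (35 higher and 7 lower). It was 54 (51 higher and 3 lower) without both Sham replicate 1 and HLI replicate 1, and 0 under each other alternative. The count of Notch members and of pathway genes called was 0 under all alternatives. With the replicate number as a block in edgeR the count of genes called was 0 (smallest adjusted p 0.0915), with 2986 genes at an unadjusted p under 0.05. The main fit did not take the numbers as pairs, since no label states that they are. Of 5 same-numbered pairs 3 had a correlation of deviations over 0.1, while 0 of 5 HLI libraries correlated best with their own number. These values do not settle whether the numbers are pairs. Directions of the log2 fold changes held under all 19 alternatives for 8 genes, Hes1 and Jag2 being the exceptions. Hes1 was 0.0609 on log2(TPM + 1), 0.0620 on log2(TPM + 0.1), 0.0940 without both replicates 1, and between -0.312 and 0.0492 without 1 library. Jag2 was 0.0871 and 0.0934 on these scales, 0.0152 without both replicates 1, and between -0.134 and 0.0247 without 1 library. The correlation of Hes1 with the endothelial mean was -0.25 without both replicates 1 and between -0.12 and 0.31 without 1 library. The causes were not tested. The adjusted p of Notch4 ran from 0.0587 to 0.579 over the alternatives and that of Dll4 from 0.105 to 0.582. At 122 to 268 counts Dll1 has the lowest depth of the 10 genes.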

Other observations

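Without both Sham replicate 1 and HLI replicate 1, 1 of 14 endothelial and 1 of 7 arterial endothelial markers passed the edgeR test, against 0.401% of all genes, and both are named after their values were seen. In that fit the endothelial markers Tek, Eng and Vwf had log2 fold changes of -0.08, -0.13 and -0.19, and the medians were 0.34 and 0.45 for the 2 lists. Unc5b, a guidance receptor gene of arterial and sprouting endothelium, had 13.3, 37.8, 37.6, 32.7 and 48.2 CPM in HLI replicates 1 to 5, against 33.1, 21.4, 19.7 and 23.3 CPM in Sham replicates 1, 2, 4 and 5, with replicate 3 the lowest of the group. Its log2 fold change without both was 0.98 (SE 0.17, edgeR adjusted p = 0.045). Erg, an endothelial transcription factor gene, had 18.0, 43.4, 36.8, 32.7 and 44.3 CPM in HLI replicates 1 to 5, against 33.2, 19.9, 20.7, 25.9 and 22.9 CPM in Sham replicates 1 to 5. Its log2 fold change without both was 0.82 (SE 0.14, edgeR adjusted p = 0.045). With all libraries neither passed.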
